A study of Mus musculus with 12 samples.

Results

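The lysosomal genes described here are 57 hydrolases, membrane proteins and regulators of the lysosome, chosen by symbol from the 24421 genes counted in each library. Messenger RNA was sequenced in Min6 cells, a mouse insulinoma line with wild-type genotype that makes insulin and stands in for the pancreatic beta cell. In the sh-Il22ra1 group an adenovirus delivered a short hairpin RNA that knocks down Il22ra1, which encodes the alpha 1 subunit of the receptor for interleukin-22. In the sh-ctrl group the adenovirus was a control. Infection lasted 48 h, and all cells were given the saturated fatty acid palmitate at 0.3 mM for 24 h, so every value below comes from fatty-acid-loaded cells and no untreated cells entered. There were 6 libraries per group, which may or may not be separate cultures: the labels leave it unsaid, and the p-values speak only of the spread between libraries.

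Lysosomes are acidic organelles in which hydrolases take apart proteins, lipids, glycogen and sugar chains delivered by endocytosis and autophagy. Most hydrolases are made in the endoplasmic reticulum, tagged with mannose 6-phosphate in the Golgi and carried on by mannose 6-phosphate receptors, while heavily glycosylated proteins such as LAMP1 and LAMP2 line the limiting membrane. The Ragulator complex and folliculin on the lysosomal surface pass nutrient signals to the kinase complex mTORC1 and to the MiT/TFE transcription factors, which bind E-boxes in promoters of lysosomal genes. In beta cells, lysosomes also take up surplus insulin granules.

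Each library held 13108494 to 15887448 reads in genes. Levels are in CPM, counts divided by the TMM-scaled library size. Il22ra1 had 1 to 4 reads in each sh-Il22ra1 library and 7 to 20 in each sh-ctrl library, and averaged 0.164 ± 0.0873 CPM in sh-Il22ra1 against 0.831 ± 0.256 CPM in sh-ctrl (SD, n = 6 each; two-sided exact permutation p = 0.00216, the smallest that 6 against 6 libraries allow). Cyb5r3, the reductase named in the title of the series, averaged 82.1 ± 5.41 CPM in sh-Il22ra1 and 578 ± 43.1 CPM in sh-ctrl (SD, n = 6 each). All 10 beta-cell markers examined were at 1 CPM or more in both groups. Of these, 7 fell and 1 rose, beside 26.5% and 25.4% of all tested genes, shares that also stand beside the marker counts below. The sum of the beta-cell markers ranged from 67289 to 76783 CPM in sh-Il22ra1 and from 75113 to 114059 CPM in sh-ctrl. Fibroblast markers summed to 1.82 to 3.09 CPM in sh-Il22ra1 and 4.64 to 9.32 CPM in sh-ctrl. Of the 8, only Col1a1, Col1a2 and Thy1 had enough reads to be tested, and all 3 were lower. The others had few reads over all sh-Il22ra1 and all sh-ctrl libraries. Col3a1 had 8 in sh-Il22ra1 and 25 in sh-ctrl, Pdgfra 10 and 18, and Pdgfrb 12 and 11. Lum had 0 and 1, and Dcn 6 and 1. The other islet hormones summed to 145 to 158 CPM in sh-Il22ra1 and 243 to 294 CPM in sh-ctrl, with Gcg (log2 fold change -0.86) and Sst (-0.62) lower and Ppy and Ghrl too low to test. The part of these shifts in the results was not tested. The share of reads without an alignment moved with the groups, from 8.71% to 11.8% across sh-Il22ra1 libraries and from 12.8% to 17.3% across sh-ctrl libraries, and its part in the results was not tested. On the second principal component, the sh-ctrl libraries spread out, with replicate 1 at 18.2 and replicate 4 at 31.9 at one end and replicate 2 at -17.7 and replicate 6 at -16.2 at the other. Calls that turn on replicates 1 and 4 are given with and without them.

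Of the 57 lysosomal genes, 53 passed the filter on low counts. The transcription factor Mitf and the cathepsins Ctsc, Ctsk and Ctss did not, and their levels stayed under 1 CPM in every library. With the quasi-likelihood test of edgeR, Benjamini-Hochberg adjustment over all tested genes and a threshold of 0.05 on adjusted p, 19 rose in sh-Il22ra1, 10 fell and 24 did not pass. That is 54.7% called, beside a background of 51.9% of the 13102 genes tested. In direction, 35.8% of the tested lysosomal genes rose, beside 25.4% of all tested genes, and 18.9% fell, beside 26.5%. The share called was thus near the background, and the direction leaned towards rises. Without sh-ctrl replicates 1 and 4, 18 of the lysosomal genes rose and 14 fell, beside 3781 and 4146 of all tested genes. The shares over all tested genes (51.9% called, 25.4% higher, 26.5% lower) also stand beside the counts by role, substrate and list below. Most of these counts cover few genes. The median log2 fold change was 0.08 over the 53 lysosomal genes and -0.0043 over all tested genes. In 16 lysosomal genes, 9 higher and 7 lower, the 2 groups did not overlap at all. That is 30.2%, beside 28.1% of all tested genes.

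Rises and falls differed in size. The 19 rises reached a log2 fold change of at most 0.55, while the falls reached -1.84, and the 3 called genes that changed by over 1.5-fold, Cd68, Lipa and Gaa, all fell. Across all tested genes, 16.4% were called and changed by over 1.5-fold. Summed over the 57 genes, the level was 10483 ± 310 CPM in sh-Il22ra1 and 10436 ± 352 CPM in sh-ctrl (SD, n = 6 each). The sums overlapped, ranging from 10072 to 10999 CPM in sh-Il22ra1 and from 9922 to 10949 CPM in sh-ctrl.

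**Figure D1:**
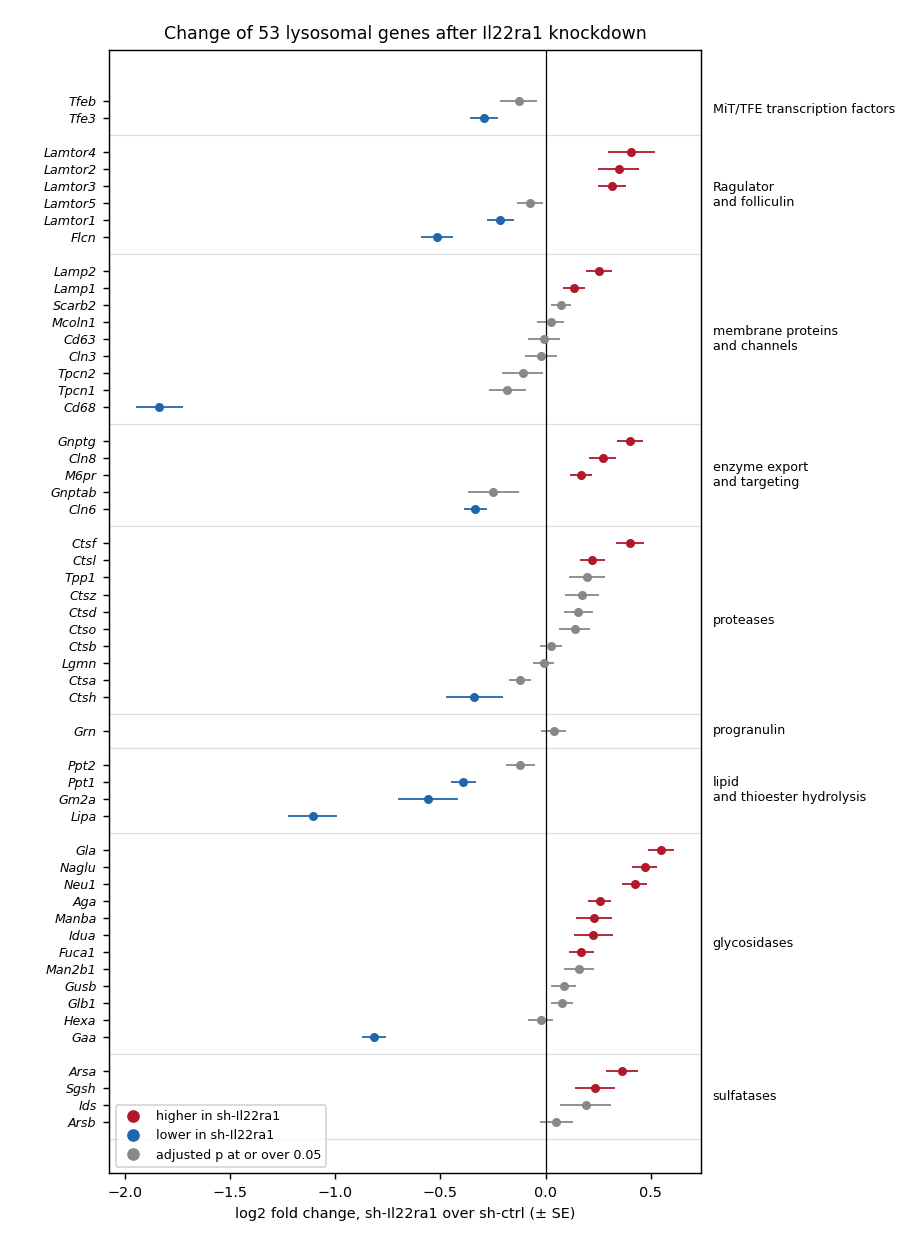
Log2 fold change of the 53 tested lysosomal genes, sh-Il22ra1 over sh-ctrl, with its SE (horizontal axis), grouped by role. Red points rose, blue points fell and grey points did not pass an adjusted p of 0.05. Cd68 (-1.84), Lipa (-1.11) and Gaa (-0.82) lie farthest left, and the largest rise is Gla (0.55).

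Among the MiT/TFE factors, which switch on lysosomal genes when nutrients are scarce, Tfe3 fell and Tfeb did not pass. Tfe3 ranged from 75.9 CPM through a median of 82.3 to 90.1 CPM in sh-Il22ra1, and from 91.1 through 102 to 110.2 CPM in sh-ctrl. Every sh-Il22ra1 library was below every sh-ctrl library, though the highest of the one group lay close to the lowest of the other. Its log2 fold change was -0.29 (SE 0.0674, edgeR adjusted p = 0.00139). Tfeb averaged 23.4 ± 1.60 CPM in sh-Il22ra1 and 25.7 ± 3.63 CPM in sh-ctrl (SD, n = 6 each), with a log2 fold change of -0.13 (SE 0.0894, edgeR adjusted p = 0.235), which was -0.013 without sh-ctrl replicates 1 and 4. Per kilobase of reference transcript, Tfe3 was the more abundant factor, at 25.3 CPM per kb against 10.2 for Tfeb in sh-Il22ra1 libraries and 31.0 against 11.2 in sh-ctrl libraries.

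The letters these factors bind were looked for in the RefSeq promoter windows of GRCm38.p6, which run from 250 bases before to 50 bases after a gene's start. The core E-box is CACGTG, and the longer TCACGTG and TCACGTGA contain it, so that the counts are nested. Both strands were read, and a gene counted if any of its windows held the letters. Windows were on hand for 50 of the 57 genes; Aga, Cln8, Tpcn1, Lamtor3, M6pr, Ctsh and Ctsb had none. CACGTG was present in 17 of the 50 (34%), beside 8.09% of the 27025 genes in the table and 11.8% of the 10008 tested genes with a window. TCACGTG was present in 15 (30%), beside 4.29% and 6.92%. TCACGTGA was present in 6 (12%), beside 1.12% and 2.16%. The lysosomal genes thus held the letters in a larger share of windows than the table at large, which is a description and shows no binding.

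Of the 17 tested lysosomal genes with CACGTG, 9 rose and 2 fell in sh-Il22ra1, with a median log2 fold change of 0.16. Of the 29 tested ones with a window but without it, 6 rose and 7 fell, with a median of 0.04. Among all tested genes, 29.2% of those with CACGTG rose and 23.9% fell, beside 25.1% and 26.7% of those without. For TCACGTG, 7 of 15 lysosomal genes with it rose and 2 fell (median 0.13), beside 8 and 7 of 31 without (median 0.05). Among all tested genes with TCACGTG, 29.6% rose and 21.2% fell, beside 25.3% and 26.7% of those without. For the longest motif, TCACGTGA, 2 of 6 genes with it rose (33.3%, median 0.09) and 0 fell. Of the 40 without it, 13 rose (32.5%, median 0.07) and 9 fell (22.5%). Among all tested genes with TCACGTGA, 27.8% rose and 20.4% fell, beside 25.5% and 26.5% of those without. The lysosomal genes that rose with CACGTG in the window were Gla, Naglu, Lamtor4, Gnptg, Ctsf, Arsa, Sgsh, Ctsl and Lamp1. Gaa and Lamtor1 carried it and fell. Ctsd, Glb1, Mcoln1, Lgmn, Cln3 and Ctsa carried it and did not pass, and their windows are not printed.

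The windows printed here show where the motif sits in 5 genes that rose and in Gaa, the gene with it that fell furthest. Each is 120 bases of GRCm38.p6 ending directly before the outermost annotated start of the gene, written 5′ to 3′ on the strand of the gene. Capitals mark CACGTG with a T directly before it or an A directly after it. Gla and Gnptg hold TCACGTGA, in 2 copies and 1 copy, Lamp1 holds 4 copies of CACGTG close to its start, and Gaa holds 1 TCACGTG.
The regions are chrX:134601126-134601245 on the minus strand for Gla, chr5:138255362-138255481 on the plus strand for Lamtor4, and chr17:25240125-25240244 on the minus strand for Gnptg. They are chr15:89477426-89477545 on the minus strand for Arsa, chr8:13159041-13159160 on the plus strand for Lamp1, and chr11:119267767-119267886 on the plus strand for Gaa.
Gla: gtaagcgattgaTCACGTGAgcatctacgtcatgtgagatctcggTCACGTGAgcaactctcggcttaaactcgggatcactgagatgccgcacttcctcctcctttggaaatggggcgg
Lamtor4: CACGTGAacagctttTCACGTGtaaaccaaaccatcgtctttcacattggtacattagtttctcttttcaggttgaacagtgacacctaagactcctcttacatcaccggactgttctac
Gnptg: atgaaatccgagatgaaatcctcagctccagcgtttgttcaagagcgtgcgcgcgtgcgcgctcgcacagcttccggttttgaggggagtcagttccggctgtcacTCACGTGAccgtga
Arsa: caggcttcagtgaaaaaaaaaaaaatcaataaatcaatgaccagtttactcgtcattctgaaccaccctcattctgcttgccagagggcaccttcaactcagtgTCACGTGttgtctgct
Lamp1: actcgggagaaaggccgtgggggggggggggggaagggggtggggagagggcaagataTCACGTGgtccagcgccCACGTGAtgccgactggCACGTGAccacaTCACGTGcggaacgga
Gaa: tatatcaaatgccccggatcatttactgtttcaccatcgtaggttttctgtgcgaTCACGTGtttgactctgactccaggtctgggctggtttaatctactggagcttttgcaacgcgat

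**Figure D2:**
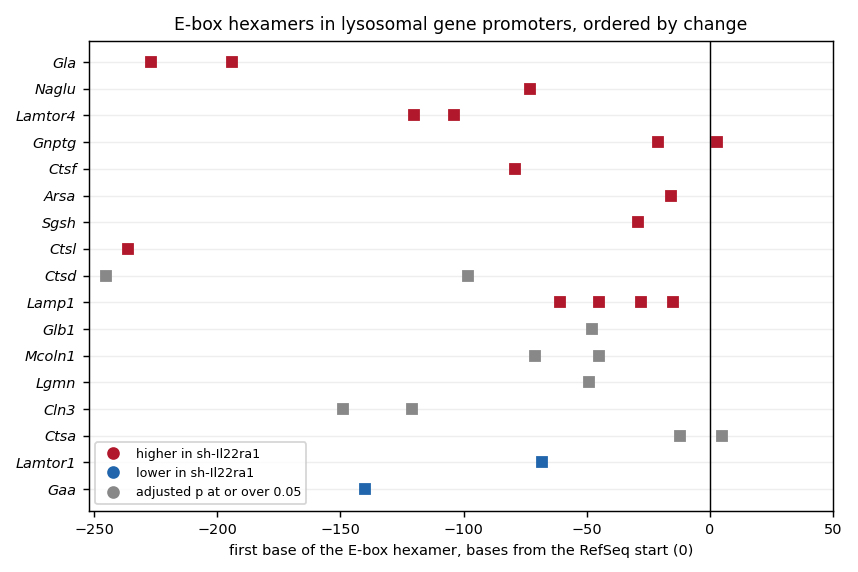
Position of each E-box hexamer in the promoter windows of the 17 lysosomal genes that hold it (horizontal axis, bases from the RefSeq start at 0), ordered by log2 fold change with the largest rise on top. Red genes rose, blue genes fell and grey genes did not pass. Lamp1 has 4 copies, Gla has copies at -227 and -194, and the 2 marks of Gnptg are 1 site measured from its 2 annotated starts.

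Ragulator is a scaffold of 5 subunits that anchors the Rag GTPases and mTORC1 to the lysosome, and its subunits did not move together. LAMTOR2 and LAMTOR3 form a dimer, LAMTOR4 and LAMTOR5 form another, and LAMTOR1 wraps around them and holds the complex in the membrane. Lamtor4 rose to 73.9 ± 9.16 CPM in sh-Il22ra1, against 55.9 ± 11.4 CPM in sh-ctrl (SD, n = 6 each), a log2 fold change of 0.41 (SE 0.111, edgeR adjusted p = 0.00505). Lamtor2 (0.35, SE 0.0974) and Lamtor3 (0.31, SE 0.0664) rose as well. Offsets for transcript length and GC content lowered the change of Lamtor2 to 0.23 and of Lamtor3 to 0.14, both still called. Lamtor5, the partner of Lamtor4, averaged 50.9 ± 2.61 CPM in sh-Il22ra1 and 53.6 ± 3.58 CPM in sh-ctrl (SD, n = 6 each) and did not pass (log2 fold change -0.07, edgeR adjusted p = 0.333), but was lower under those offsets (-0.28, edgeR adjusted p = 0.000416).

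Lamtor1, the membrane anchor, fell by a log2 fold change of 0.22 (SE 0.0657, edgeR adjusted p = 0.0102). Its libraries overlapped, from 152 to 191 CPM in sh-Il22ra1 and from 176 to 214 CPM in sh-ctrl. Lamtor1 shares 18.7% of its exon bases with Lrrc51 on the opposite strand, which rose (log2 fold change 1.42). The strand setting of the counting is not given in the sources used here, so reads in shared exons cannot be assigned with certainty. The same holds for the other overlapping genes named below.

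Flcn encodes folliculin, which activates RagC and RagD and thereby lets mTORC1 hold TFEB and TFE3 in the cytosol. It ranged from 45.8 CPM through a median of 48.4 to 55.5 CPM in sh-Il22ra1, and from 55.8 through 73.1 to 78.2 CPM in sh-ctrl. The groups came close without overlapping, and the lowest sh-ctrl library was replicate 4. Flcn fell 1.43-fold (log2 fold change -0.52, SE 0.0768, edgeR adjusted p = 1.95e-05). It was the largest change in its role group.

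Cd68 had the largest change of all 53 lysosomal genes. It encodes a LAMP-like glycoprotein that is abundant in macrophage lysosomes, and its locus in GRCm38 is chromosome 11, 69664213 to 69666153, minus strand. Cd68 ranged from 5.28 CPM through a median of 6.07 to 7.69 CPM in sh-Il22ra1, and from 18.2 through 22.5 to 26.3 CPM in sh-ctrl. The groups lay far apart, with no library of either group between 7.69 and 18.2 CPM. Cd68 fell 3.57-fold, with 557 reads over all sh-Il22ra1 libraries and 1932 over all sh-ctrl libraries (log2 fold change -1.84, SE 0.111, edgeR adjusted p = 2.66e-10).

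Because CD68 marks macrophages, the leukocyte markers were read beside it. Summed over 10 markers, their level was 8.95 to 12.4 CPM in sh-Il22ra1 libraries and 7.61 to 14.4 CPM in sh-ctrl libraries. Of the 10, 3 in sh-Il22ra1 and 2 in sh-ctrl averaged 1 CPM or more. Only Lyz2, Cd74 and Fcer1g had enough reads to be tested, of which Fcer1g fell (log2 fold change -0.81). Ptprc, the pan-leukocyte antigen, had 8 reads over the 6 sh-Il22ra1 libraries and 3 over the 6 sh-ctrl libraries, and the macrophage marker Adgre1 had 4 in sh-Il22ra1 and 8 in sh-ctrl. These 2 markers were close to 0 in both groups. Cd74 averaged 7.11 CPM in sh-Il22ra1 and 5.77 CPM in sh-ctrl and did not pass. Fcer1g averaged 1.24 CPM in sh-Il22ra1 and 2.18 CPM in sh-ctrl. Cd68 averaged 6.17 CPM in sh-Il22ra1 and 22.1 CPM in sh-ctrl. The part of leukocytes in the fall of Cd68 was not tested. In bulk RNA, fewer cells that express a gene and less RNA per cell cannot be told apart.

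Of the other 8 membrane proteins, 2 rose and 6 did not pass. Lamp2, whose isoform LAMP2A is the receptor of chaperone-mediated autophagy, rose to 203 ± 9.13 CPM in sh-Il22ra1, against 169.9 ± 14.6 CPM in sh-ctrl (SD, n = 6 each; log2 fold change 0.25, SE 0.0609, edgeR adjusted p = 0.00189). Lamp1, whose promoter held 4 E-boxes, ranged from 1254 through a median of 1272 to 1414 CPM in sh-Il22ra1 and from 1123 through 1183 to 1209 CPM in sh-ctrl, with no overlap. The rise was small, a log2 fold change of 0.13 (SE 0.0522, edgeR adjusted p = 0.0412). It did not pass when any 1 library other than sh-ctrl replicate 4 or sh-Il22ra1 replicate 3 was left out (edgeR adjusted p from 0.050 to 0.0997 over 10 fits), nor with length and GC offsets (log2 fold change 0.04, edgeR adjusted p = 0.404). Lamp1 shares 9.31% of its exon bases with Grtp1 on the opposite strand, which fell.

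The lysosomal channels and carriers among the 57 genes showed no called change, while some of those in the further lists below did. Mcoln1, the calcium channel of the lysosome, averaged 117 ± 9.07 CPM in sh-Il22ra1 and 115 ± 8.37 CPM in sh-ctrl (SD, n = 6 each). Tpcn1 and Tpcn2, cation channels of endosomes and lysosomes, had log2 fold changes of -0.18 (edgeR adjusted p = 0.0838) and -0.11 (edgeR adjusted p = 0.360). Tpcn1 was called lower without sh-ctrl replicate 1 (-0.24, edgeR adjusted p = 0.0139), without replicate 4 (-0.22, edgeR adjusted p = 0.0302) and without both (-0.30, edgeR adjusted p = 0.000349). With length and GC offsets its change was -0.03 and did not pass (edgeR adjusted p = 0.671). Scarb2, which carries glucocerebrosidase to the lysosome, had a log2 fold change of 0.07, and Cln3, a membrane protein mutated in Batten disease, had one of -0.02. Cd63, a tetraspanin of lysosomes and granules, had the highest level per length of the 57 genes, at 716 CPM per kb in sh-Il22ra1 and 721 CPM per kb in sh-ctrl. Its log2 fold change was -0.01, and -0.19 with length and GC offsets (edgeR adjusted p = 0.000611).

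**Figure D3:**
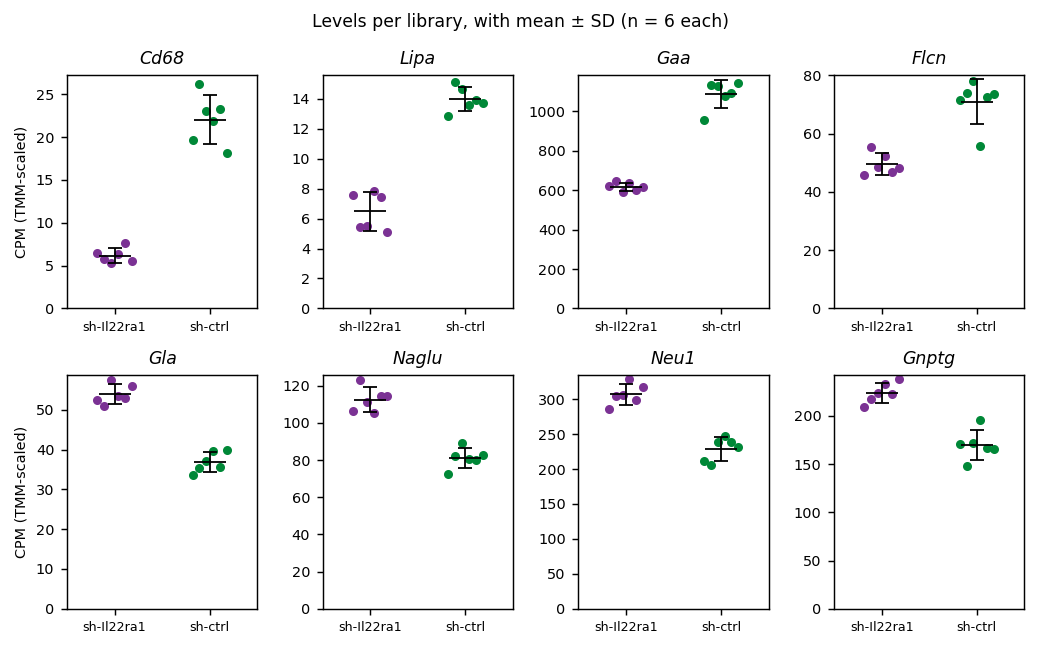
Level in CPM (vertical axis, from 0) of 8 lysosomal genes in each library, with the mean and SD as bars (n = 6 each), sh-Il22ra1 on the left and sh-ctrl on the right of each panel. The groups do not overlap in any panel. Cd68, Lipa, Gaa and Flcn are lower in sh-Il22ra1, and Gla, Naglu, Neu1 and Gnptg are higher.

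Of the 5 genes that export or target hydrolases, 3 rose (60%) and 1 fell (20%), beside 25.4% and 26.5% of all tested genes. GNPTAB and GNPTG are subunits of the phosphotransferase that makes the mannose 6-phosphate tag, GNPTAB holding the catalytic part. Gnptg ranged from 209 CPM through a median of 224 to 238 CPM in sh-Il22ra1, and from 148 through 168 to 196 CPM in sh-ctrl, with no overlap. It rose 1.32-fold (log2 fold change 0.40, SE 0.0625, edgeR adjusted p = 3.27e-05), or by 0.25 with length and GC offsets, still called. Gnptg shares 49.5% of its exon bases with Unkl on the opposite strand, which had 10.2 CPM in sh-Il22ra1 and 9.45 CPM in sh-ctrl and did not pass. Gnptab averaged 17.6 ± 2.09 CPM in sh-Il22ra1 and 20.8 ± 4.10 CPM in sh-ctrl (SD, n = 6 each) and did not pass (log2 fold change -0.25, edgeR adjusted p = 0.0921). It was called lower without sh-ctrl replicate 4 (-0.35, edgeR adjusted p = 0.00349) and without both replicates 1 and 4 (-0.41, edgeR adjusted p = 0.000292). Per length, Gnptab had 3.26 CPM per kb in sh-Il22ra1 and 3.87 CPM per kb in sh-ctrl, far below Gnptg with 182 CPM per kb in sh-Il22ra1 and 138 CPM per kb in sh-ctrl.

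M6pr, the smaller mannose 6-phosphate receptor, ranged from 259 to 291 CPM in sh-Il22ra1 and from 229 to 258 CPM in sh-ctrl and rose (log2 fold change 0.17, SE 0.0519, edgeR adjusted p = 0.0112). With length and GC offsets it did not pass (0.07, edgeR adjusted p = 0.133). CLN6 and CLN8 form a complex that loads new hydrolases into vesicles leaving the endoplasmic reticulum, and their genes moved in opposite directions. Cln6 fell to 169 ± 5.95 CPM in sh-Il22ra1, against 213 ± 14.6 CPM in sh-ctrl (SD, n = 6 each; log2 fold change -0.33, SE 0.0559, edgeR adjusted p = 7.18e-05). Its groups did not overlap, with 162 to 177 CPM in sh-Il22ra1 and 192 to 231 CPM in sh-ctrl. Cln8 rose to 42.4 ± 2.99 CPM in sh-Il22ra1, against 35.2 ± 1.92 CPM in sh-ctrl (SD, n = 6 each; log2 fold change 0.27, SE 0.0655, edgeR adjusted p = 0.00207).

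Of the 13 protease genes, 10 were tested, 2 rose (20%) and 1 fell (10%), beside 25.4% and 26.5% of all tested genes. Ctsf, a cysteine cathepsin, ranged from 99.7 CPM through a median of 108 to 116 CPM in sh-Il22ra1, and from 71.3 through 80.7 to 95.0 CPM in sh-ctrl, with no overlap. It rose 1.32-fold (log2 fold change 0.40, SE 0.0678, edgeR adjusted p = 7.95e-05). Ctsl, a cysteine cathepsin with broad specificity, rose to 283 ± 8.03 CPM in sh-Il22ra1, against 243 ± 21.6 CPM in sh-ctrl (SD, n = 6 each; log2 fold change 0.22, edgeR adjusted p = 0.00465). Ctsh, an aminopeptidase, was low, at 4.34 ± 0.342 CPM in sh-Il22ra1 and 5.49 ± 1.10 CPM in sh-ctrl (SD, n = 6 each). Its fall (log2 fold change -0.34, edgeR adjusted p = 0.0457) did not pass when any 1 of sh-ctrl replicates 1, 2, 3 and 6 or sh-Il22ra1 replicates 2 to 6 was left out (edgeR adjusted p from 0.0504 to 0.120 over 9 fits).

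The most abundant proteases did not pass. The aspartic protease Ctsd ranged from 859.8 through a median of 943 to 1061 CPM in sh-Il22ra1, and from 756 through 842 to 993 CPM in sh-ctrl, which overlapped (log2 fold change 0.16, SE 0.0688, edgeR adjusted p = 0.0661). Ctsz, a carboxypeptidase, had a log2 fold change of 0.17 (edgeR adjusted p = 0.0851). Both were called higher without sh-ctrl replicate 4, Ctsd at 0.19 (edgeR adjusted p = 0.00956) and Ctsz at 0.23 (edgeR adjusted p = 0.00735), and Ctsd also without sh-Il22ra1 replicate 3 (edgeR adjusted p = 0.0415). Tpp1, the tripeptidyl peptidase lost in a childhood neuronal ceroid lipofuscinosis, had a log2 fold change of 0.20 (edgeR adjusted p = 0.0599). It was called higher without sh-ctrl replicate 2 (0.27, edgeR adjusted p = 0.00678) and with length and GC offsets (0.17, edgeR adjusted p = 0.0358). Its change was 0.12 without sh-ctrl replicate 4 (edgeR adjusted p = 0.141) and 0.09 without sh-ctrl replicates 1 and 4 (edgeR adjusted p = 0.256). Ctsb, which can activate trypsinogen in the pancreas, had log2 fold change 0.03, the asparaginyl endopeptidase Lgmn -0.01 and Ctso 0.14, none of them called.

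Ctsa encodes protective protein, a carboxypeptidase that keeps NEU1 and GLB1 stable in a shared complex, and the genes of that complex did not change alike. Neu1 rose, while Ctsa had a log2 fold change of -0.12 (SE 0.0537, edgeR adjusted p = 0.0653) and Glb1 one of 0.08 (SE 0.0522, edgeR adjusted p = 0.230). Ctsa was called lower without sh-ctrl replicate 1, without sh-ctrl replicate 6 and without sh-Il22ra1 replicate 2, each at a log2 fold change of -0.14 (edgeR adjusted p = 0.0464, 0.0490 and 0.0441). Grn encodes progranulin, a secreted protein that is cut into granulins in the lysosome. It averaged 539 ± 32.0 CPM in sh-Il22ra1 and 526 ± 38.2 CPM in sh-ctrl (SD, n = 6 each), and its log2 fold change of 0.04 did not pass (edgeR adjusted p = 0.627).

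Of the 4 genes of lipid and thioester hydrolysis, 3 fell and none rose, beside 26.5% and 25.4% of all tested genes. Summed, they had 141 ± 6.32 CPM in sh-Il22ra1 and 178 ± 8.53 CPM in sh-ctrl (SD, n = 6 each), and the sums did not overlap, with 133 to 148 CPM in sh-Il22ra1 and 168 to 189 CPM in sh-ctrl. Lipa encodes lysosomal acid lipase, which frees fatty acids and cholesterol from triglycerides and cholesteryl esters, and its locus is chromosome 19, 34492318 to 34527474, minus strand. It ranged from 5.08 CPM through a median of 6.45 to 7.87 CPM in sh-Il22ra1, and from 12.8 through 13.8 to 15.1 CPM in sh-ctrl. Every sh-Il22ra1 library lay well below every sh-ctrl library. Lipa fell 2.16-fold (log2 fold change -1.11, SE 0.116, edgeR adjusted p = 3.03e-07), with 585 reads over all sh-Il22ra1 libraries and 1226 over all sh-ctrl libraries.

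Ppt1, the thioesterase that removes palmitate from proteins, ranged from 64.2 CPM through a median of 70.5 to 72.8 CPM in sh-Il22ra1, and from 85.1 through 90.1 to 96.4 CPM in sh-ctrl, with no overlap. It fell 1.31-fold (log2 fold change -0.39, SE 0.0581, edgeR adjusted p = 1.98e-05). Its relative Ppt2 did not pass (log2 fold change -0.12, edgeR adjusted p = 0.159), and was called lower without sh-ctrl replicate 4 (-0.17, edgeR adjusted p = 0.0251). Gm2a, the activator that presents ganglioside GM2 to hexosaminidase A, fell to 5.28 ± 0.876 CPM in sh-Il22ra1, against 7.82 ± 1.55 CPM in sh-ctrl (SD, n = 6 each; log2 fold change -0.56, SE 0.143, edgeR adjusted p = 0.00306). Its groups overlapped between 6.24 and 6.76 CPM. Hexa, the subunit of hexosaminidase A that it serves, averaged 519 ± 20.2 CPM in sh-Il22ra1 and 528 ± 40.6 CPM in sh-ctrl (SD, n = 6 each) and did not pass (edgeR adjusted p = 0.749).

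**Figure D4:**
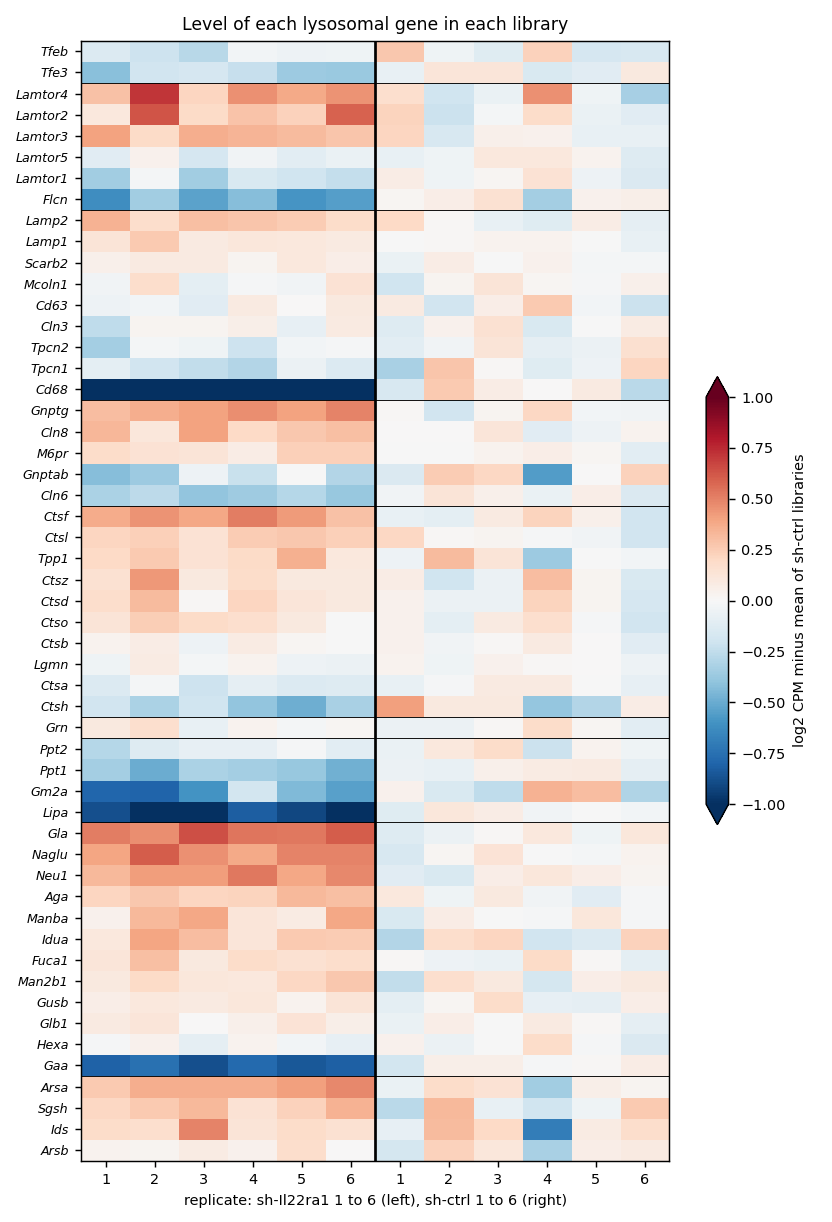
Level of the 53 tested lysosomal genes in each library, as log2 CPM minus the mean of the sh-ctrl libraries (colour, limited to 1 in size), with sh-Il22ra1 replicates 1 to 6 on the left and sh-ctrl replicates 1 to 6 on the right. Lines separate the role groups in the order used in the text. Cd68, Lipa and Gaa are blue in all 6 sh-Il22ra1 libraries, and Gla, Naglu and Neu1 are red in all 6.

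The glycosidase group of 12 genes includes Aga, which frees sugar chains from asparagine and is not strictly a glycosidase. Of the 12, 7 rose (58.3%) and 1 fell (8.33%), beside 25.4% and 26.5% of all tested genes. The rises of Aga, Manba, Idua and Fuca1 lost their call in 1 or more alternatives, as given below. Gaa, the acid alpha-glucosidase that breaks down glycogen in the lysosome and is lost in Pompe disease, ranged from 592 CPM through a median of 618 to 647 CPM in sh-Il22ra1, and from 955 through 1112 to 1142 CPM in sh-ctrl. The groups lay far apart. Gaa fell 1.76-fold (log2 fold change -0.82, SE 0.0565, edgeR adjusted p = 1.45e-09). Its locus is chromosome 11, 119267887 to 119285454, plus strand. Gaa was the fourth most abundant of the 57 genes per length in sh-ctrl, at 170.4 CPM per kb in sh-Il22ra1 and 299.7 CPM per kb in sh-ctrl. The glycosidase sum, of which Gaa was the largest term in both groups, was lower in sh-Il22ra1, at 2238 ± 55.5 CPM, against 2526 ± 96.5 CPM in sh-ctrl (SD, n = 6 each), although more glycosidases rose than fell.

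Gla, Naglu and Neu1 rose most. Gla encodes alpha-galactosidase A, which trims globotriaosylceramide and is lost in Fabry disease. It ranged from 50.9 CPM through a median of 53.2 to 57.6 CPM in sh-Il22ra1, and from 33.7 through 36.4 to 39.9 CPM in sh-ctrl, with no overlap. Its rise of 1.46-fold was the largest of the lysosomal genes (log2 fold change 0.55, SE 0.0621, edgeR adjusted p = 8.28e-07), and its window above holds TCACGTGA in 2 copies.

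Naglu, an N-acetylglucosaminidase of heparan sulfate breakdown, ranged from 105 CPM through a median of 113 to 123 CPM in sh-Il22ra1, and from 72.5 through 81.5 to 89.1 CPM in sh-ctrl (log2 fold change 0.47, SE 0.0597, edgeR adjusted p = 3.23e-06). Neu1, the lysosomal sialidase, ranged from 286 CPM through a median of 305 to 329 CPM in sh-Il22ra1, and from 206 through 235 to 247 CPM in sh-ctrl (log2 fold change 0.42, SE 0.0589, edgeR adjusted p = 9.33e-06). Neither gene's groups overlapped. Aga, which cuts the sugar chain from asparagine, ranged from 82.5 to 89.2 CPM in sh-Il22ra1 and from 65.6 to 76.6 CPM in sh-ctrl (log2 fold change 0.26, SE 0.0556, edgeR adjusted p = 0.000815). Its rise was 0.07 with length and GC offsets and did not pass (edgeR adjusted p = 0.316).

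The calls of the other 3 risen glycosidases depended on single libraries. Manba, the beta-mannosidase (log2 fold change 0.23, edgeR adjusted p = 0.0305), did not pass when any 1 of sh-ctrl replicates 1 and 3 or sh-Il22ra1 replicates 2, 3 and 6 was left out (edgeR adjusted p from 0.0506 to 0.0998), nor without both sh-ctrl replicates 1 and 4 (0.17, edgeR adjusted p = 0.0978). Idua, the iduronidase of heparan and dermatan sulfate breakdown (0.23, edgeR adjusted p = 0.0469), did not pass when any 1 of sh-ctrl replicates 1, 4 and 5 or sh-Il22ra1 replicates 2, 3, 5 and 6 was left out (edgeR adjusted p from 0.0750 to 0.106), and its change was 0.10 without both sh-ctrl replicates 1 and 4. Fuca1, the alpha-fucosidase (0.17, edgeR adjusted p = 0.0220), did not pass when any 1 of sh-ctrl replicates 3 and 6 or sh-Il22ra1 replicates 2 and 6 was left out (edgeR adjusted p from 0.0503 to 0.0569). Of the glycosidases not yet given, the alpha-mannosidase Man2b1 had a log2 fold change of 0.16 (edgeR adjusted p = 0.0692; 0.19 and called without sh-ctrl replicate 2, edgeR adjusted p = 0.0309; 0.044 without sh-ctrl replicates 1 and 4) and the beta-glucuronidase Gusb 0.09 (edgeR adjusted p = 0.246).

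Of the 4 sulfatases, 2 rose and none fell, beside 25.4% and 26.5% of all tested genes. Arsa, which removes sulfate from sulfatide, ranged from 66.0 CPM through a median of 70.9 to 76.7 CPM in sh-Il22ra1, and from 43.2 through 56.7 to 62.5 CPM in sh-ctrl, with no overlap (log2 fold change 0.36, SE 0.0768, edgeR adjusted p = 0.000651). Sgsh, the sulfamidase of heparan sulfate breakdown, rose by 0.23 (SE 0.0959, edgeR adjusted p = 0.0475). That call was lost when any 1 of sh-ctrl replicates 1, 3, 4 and 5 or sh-Il22ra1 replicates 1, 2, 3, 5 and 6 was left out (edgeR adjusted p from 0.0581 to 0.115), and the change was 0.11 without both sh-ctrl replicates 1 and 4 and 0.37 with length and GC offsets. Sgsh and Arsa share 21.6% and 18.8% of their exon bases with genes on the opposite strand that had too few reads to be tested. Ids, the iduronate sulfatase, had a log2 fold change of 0.19 (SE 0.120, edgeR adjusted p = 0.195), which was 0.067 without sh-ctrl replicate 4 and 0.015 without sh-ctrl replicates 1 and 4. Arsb, which acts on dermatan and chondroitin sulfate, had one of 0.05 (edgeR adjusted p = 0.619).

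Arranged by substrate, a grouping made after the values were seen, called and uncalled enzymes stood side by side. Of 7 tested genes of heparan sulfate breakdown, 4 rose, 1 fell and 2 did not pass. Naglu, Idua, Sgsh and the acetyltransferase Hgsnat rose, Ids and Gusb did not pass, and the gene that fell is not reported here. Of 11 tested genes of glycosphingolipid breakdown, 4 rose and 1, Gm2a, fell. Of 8 for the sugar chains of glycoproteins, 4 rose and none fell. Gaa, for glycogen, and Lipa, for neutral lipid, each stood alone for their substrate and fell.

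The signed change did not follow abundance, and the size of change without its sign was not compared with abundance. Across the 53 tested genes, Spearman's rho between the level per length in sh-ctrl and the log2 fold change was 0.08, and between transcript length and log2 fold change -0.02, as descriptions over genes, which are not independent. The 4 genes with the highest levels per length in sh-ctrl were Cd63, Lamp1, Ctsd and Gaa, at 721, 529, 401 and 299.7 CPM per kb, against 716, 580, 447 and 170.4 CPM per kb in sh-Il22ra1. Only Lamp1 and Gaa of these were called, in opposite directions.

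**Figure D5:**
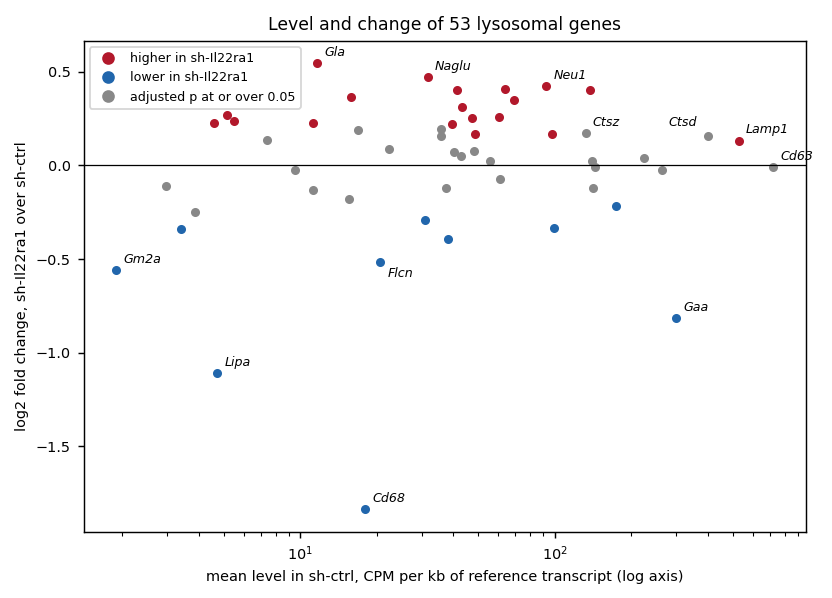
Log2 fold change, sh-Il22ra1 over sh-ctrl (vertical axis), against the mean level in sh-ctrl in CPM per kb of reference transcript (horizontal log axis) for the 53 tested lysosomal genes, coloured by call. Falls occur at low levels (Lipa, 4.71 CPM per kb) and at high levels (Gaa, 299.7 CPM per kb).

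Other genes of the pathway were read from 4 further lists with 107 symbols, of which 104 were tested, 40 rose and 18 fell, a share of 55.8% called beside 51.9% of all tested genes. By direction, 38.5% of the 104 rose, beside 25.4% of all tested genes, and 17.3% fell, beside 26.5%. The median log2 fold change of the 104 was 0.09. Of 20 tested other enzymes and activators, 5 rose and 4 fell. Galc, the galactosylceramidase, rose by a log2 fold change of 0.48, Hgsnat by 0.47 and Smpd1, the acid sphingomyelinase, by 0.37. Of 25 tested other membrane proteins and transporters, 11 rose and 4 fell. The proton and potassium channel Tmem175 (log2 fold change -1.17) and the chloride-proton exchanger Clcn7 (-0.77) fell, while the peptide transporter Slc15a4 (0.54) and the arginine sensor Slc38a9 (0.80) rose. Tmem175 shares 35.3% of its exon bases with Dgkq on the opposite strand, which rose (0.78).

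Of 27 tested genes for sorting and tethering to the lysosome, 11 rose and 4 fell. Ap1m1, the medium subunit of the AP-1 adaptor that collects mannose 6-phosphate receptors, fell to 33.7 ± 3.33 CPM in sh-Il22ra1, against 102 ± 4.65 CPM in sh-ctrl (SD, n = 6 each; log2 fold change -1.61). Gga3, an adaptor for the same receptors, rose by a log2 fold change of 0.70, Rab7, the GTPase of late endosomes, by 0.52, and Arl8b, which couples lysosomes to kinesin, by 0.45. Of 32 tested genes for mTORC1 and nutrient sensing, 13 rose and 6 fell. Kptn and Itfg2, subunits of KICSTOR, which places the inhibitor GATOR1 on lysosomes, fell by log2 fold changes of 0.77 and 0.67. Nprl2, a subunit of GATOR1, rose by 0.55 and Sesn2, a leucine sensor, by 0.53.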

How the data were processed

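RNA from Min6 cells (TRIzol) was sequenced in paired-end mode on an Illumina NovaSeq after preparation with a VAHTS Universal V6 kit, per the labels' protocols. The submitters' processing notes name the aligner HISAT2 2.0.5, HTSeq and mm10. No annotation or strand setting is given in the sources used here. The authors deposited whole-number read counts per gene symbol for each library. Rows of reads assigned to no gene, 23.5% to 31.7% of a file, were left out. A deposited CPM table was not used. Groups come from the sample titles; in the treatment labels, the digit that ends the gene name goes up with the replicate from 2 to 6 in sh-Il22ra1.

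Counts were fitted over all genes in R 4.3.3 with edgeR 4.0.16 (filterByExpr with a minimum count of 10 and a minimum total of 15, TMM, glmQLFit and glmQLFTest, two-sided, Benjamini-Hochberg over 13102 genes, threshold 0.05), tested first on simulated data. The SE is the log2 fold change over the square root of F. Positions, exon overlap, transcript length and GC content came from GENCODE M21 on GRCm38, and promoters from RefSeq's table for GRCm38.p6. Of the 24421 symbols, 23376 matched GENCODE by symbol and 657 by synonym. Levels per length divide by the reference transcript.

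The genes, the lists and the tests were chosen with earlier results of these data known, and the substrate groups after the values were seen. All 57 genes are accounted for; values in each group's range are given for called genes whose groups do not overlap and the largest changes of each role, and of each further list up to 4 called genes with the smallest p are named, and 1 gene that this rule names is not reported here. Alternatives were RLE size factors, no low-count filter, DESeq2 1.42.0, the replicate number as a block, each library left out in turn, sh-ctrl replicates 1 and 4 left out together, and offsets for transcript length and GC content (splines with 4 degrees of freedom). No pair of libraries was a duplicate: the closest had a chi-square of 3.96 times its degrees of freedom.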

Additional observations from a re-analysis of the deposited data

Results flagged for a closer look

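In 6 of the 106 combinations of a tested lysosomal gene and a group of 6 libraries, 1 library lay so far from the others that the gap, divided by the range of the group, passed Dixon's 95% critical value of 0.625; chance gives about 1 in 20. In sh-Il22ra1, replicate 2 was high for Lamp1, at 1414 CPM against 1254 to 1286 CPM in the other 5 (gap over range 0.796). Replicate 2 was also high for Ctsz, at 256 CPM against 202 to 215 CPM (0.769). Replicate 3 was high for Ids, at 116 CPM against 89.3 to 93.0 CPM (0.858). In sh-ctrl, replicate 4 was low for Flcn, at 55.8 CPM against 71.5 to 78.2 CPM (0.703), and high for Fuca1, at 139 CPM against 114 to 123 CPM (0.625). Replicate 1 was low for Gaa, at 955 CPM against 1080 to 1142 CPM (0.670). Of the called genes among these, Flcn, Gaa and Fuca1 were also called without the library concerned, while Lamp1 had an adjusted p of 0.0997 by edgeR without sh-Il22ra1 replicate 2.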

How the results depend on the processing

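Over 18 alternatives, 12 of which left out 1 library, 21 of the 29 called lysosomal genes were called in each, 12 higher and 9 lower, and no called gene changed direction. The other 8 are Lamp1, Ctsh, Idua, Manba, Sgsh, Fuca1, M6pr and Aga. The counts ran from 14 to 21 higher and from 9 to 14 lower. With 1 library left out they ran from 14 to 20 higher and from 9 to 13 lower. Without sh-ctrl replicates 1 and 4 together, 18 were higher and 14 lower, against 19 and 10 with all libraries. In the further lists 40 were higher and 29 lower, against 40 and 18. Over all tested genes the same setting gave 3781 higher and 4146 lower, against 3323 and 3472. Lower calls thus increased in each of these sets, while higher calls increased only over all tested genes. Length and GC offsets gave 21 higher and 13 lower, lost Lamp1, M6pr and Aga and added 8 calls: Lamtor5, Cd63, Ctsd, Ctsz, Lgmn, Tpp1, Man2b1 and Ids. DESeq2 gave 18 higher and 10 lower, RLE size factors 19 and 10, and no low-count filter 16 and 9; the cause of these differences was not tested. Uncalled genes near 0 changed sign: without sh-ctrl replicates 1 and 4 the log2 fold change was 0.070 for Cd63, -0.035 for Mcoln1, 0.018 for Hexa and -0.080 for Arsb, and with length and GC offsets it was -0.0068 for Mcoln1. With 1 library left out it ran from -0.049 to 0.035 for Cd63, -0.014 to 0.049 for Mcoln1, -0.065 to 0.021 for Cln3, -0.053 to 0.00045 for Hexa and -0.023 to 0.097 for Arsb. With the replicate number as a block, 21 lysosomal genes were higher and 10 lower, with Lamp1 lost and Ctsd, Tpp1 and Man2b1 gained. Same-numbered libraries deviated together by correlations of -0.03 to 0.23, and 2 of the 6 sh-Il22ra1 libraries matched their own number best, so the numbers were not taken to pair libraries. Depth limits Ctsh, Gm2a, Cd68 and Lipa most, with 391, 477, 557 and 585 reads over all sh-Il22ra1 libraries.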

Other observations

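The Rag GTPases, named here after their values were seen, work as a dimer of RagA or RagB with RagC or RagD and bind Ragulator. Rraga rose to 132 ± 4.24 CPM in sh-Il22ra1, against 96.4 ± 8.01 CPM in sh-ctrl (log2 fold change 0.45), and Rragc rose to 103 ± 4.96 CPM, against 79.0 ± 2.45 CPM (0.38; SD, n = 6 each). Rragd rose as well (0.44), while Rragb, the close relative of Rraga, fell to 16.1 ± 0.622 CPM, against 22.8 ± 1.18 CPM in sh-ctrl (-0.51). None of the 4 had groups that overlap, as was so for 28.1% of all tested genes and 40.6% of the 32 tested in their list. Mtor, the kinase, fell by a log2 fold change of 0.39, with groups that overlapped, and Fnip2, a folliculin partner, fell by 0.28.

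Clcn7, named above as an exchanger, fell to 75.2 ± 2.84 CPM in sh-Il22ra1, against 128 ± 15.0 CPM in sh-ctrl (SD, n = 6 each), while Ostm1, its beta subunit, rose by a log2 fold change of 0.29. Among cargo adaptors, Ap1m1 fell while Ap1s1 and Ap1b1, other subunits of AP-1, rose by 0.27 and 0.23. Psap, the precursor of the saposins, had 1971 CPM in sh-Il22ra1 and 1939 CPM in sh-ctrl and did not pass.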
